A study of Mus musculus with 8 samples.

Results

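The question examined here was where loss of Nr6a1 changed RNA levels differently in the anterior and the posterior of the mouse embryo. All 8 libraries of the series were used, 2 in each of 4 groups. For every gene the mutant minus wild-type difference in the posterior was subtracted from the same difference in the anterior, on the scale of log2(TPM + 1), where TPM is a length-corrected share of a library's transcripts. Of 55421 gene identifiers, the 16699 with at least 1 TPM in at least 2 libraries were tested.

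The mutant groups, Gcnf_A and Gcnf_P, held Gcnf-/- embryos, and the control groups, WT_A and WT_P, held wild-type embryos. All were taken at E9.25, the stage with 9 to 11 somites. The anterior piece ran forward from pharyngeal arch 1, which it included, and the posterior piece ran from pharyngeal arch 2 to the tail. Mutant libraries carry the numbers 159 and 163 and wild-type libraries the numbers 153 and 156 in both regions, and values are given in that order throughout. The labels do not say which part of the gene the allele lacks, whether a group's libraries are from different embryos, or whether a number marks 1 embryo cut into its 2 pieces. The p-values therefore measure only the spread between these libraries.

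Nr6a1 encodes germ cell nuclear factor, an orphan nuclear receptor that binds direct repeats of AGGTCA without spacing and represses transcription. It is known for silencing Pou5f1, which encodes the pluripotency factor Oct4, as the embryo leaves the epiblast state. Embryos that lack it stop elongating their trunk and die in midgestation, and in the trunk the gene is known to act on the succession of Hox genes along the body axis.

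Nr6a1 itself was read at 240 and 202 TPM in the mutant anterior, against 194 and 205 TPM in the wild-type anterior. In the posterior it was read at 158 and 116 TPM in the mutant and 157 and 165 TPM in the wild type. The genotypes overlapped in both regions (limma, Benjamini-Hochberg adjusted p = 0.48 for the difference of effects), so the whole-gene level does not check the genotype labels. Pou5f1 separates the genotypes in both regions. It reached 94.4 and 127 TPM in the mutant anterior against 1.94 and 1.81 TPM in the wild type, and 77.2 and 62 TPM in the mutant posterior against 3.95 and 4.18 TPM. The rise was larger in the anterior, 5.26 against 3.79 on the log2 scale (difference 1.47 ± 0.23 SE, limma adjusted p = 0.026).

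The stretch in front of the Pou5f1 start carries a copy of the receptor's core site AGGTCA. It is shown because this is the target the receptor is best known for and its rise differed by region. The stretch comes from RefSeq (GRCm38.p6, plus strand, chr17:35505782-35506017), with the core site in capitals at positions 35505999 to 35506004.
Pou5f1: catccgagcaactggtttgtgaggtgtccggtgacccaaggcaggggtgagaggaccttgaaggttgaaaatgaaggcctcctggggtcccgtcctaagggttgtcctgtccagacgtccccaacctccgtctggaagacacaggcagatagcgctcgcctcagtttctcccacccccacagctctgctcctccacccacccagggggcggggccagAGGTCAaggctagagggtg
A second stretch is shown for Cyp26a1, which encodes an enzyme that breaks down retinoic acid and which moved in opposite directions in the 2 regions. It carries a direct repeat of AGTTCA spaced by 5 bases, the arrangement known as a retinoic acid response element (plus strand, chr19:37697558-37697797). The repeat lies on the minus strand at positions 37697776 to 37697792, so it reads TGAACT here, and its repeated units are in capitals.
Cyp26a1: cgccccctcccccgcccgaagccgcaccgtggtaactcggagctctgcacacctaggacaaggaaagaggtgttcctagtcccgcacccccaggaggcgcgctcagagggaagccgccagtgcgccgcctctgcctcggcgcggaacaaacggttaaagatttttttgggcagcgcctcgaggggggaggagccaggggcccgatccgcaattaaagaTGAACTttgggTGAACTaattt
Promoter windows of 300 bases, 250 of them before the start, were available for 101 of the 169 genes called below. The repeat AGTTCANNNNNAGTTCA, searched on both strands, was found in 0.0296% of 27025 genes with a window, and among the 101 only in Cyp26a1. This is the form in the Cyp26a1 stretch. Other forms of the element were not searched, so the share does not show that it is particular to Cyp26a1. The core site AGGTCA on its own was found in 18.1% of all genes and in 13.9% of the 101, Pou5f1 and Nanog among them. Exact copies of the unspaced repeat AGGTCAAGGTCA and the extended site TCAAGGTCA were in none of the 101 windows, and in 0.0037% and 0.466% of all genes. Imperfect copies were not searched, so these shares do not show that the windows lack such a repeat. In the Pou5f1 stretch the core site is followed without spacing by aggcta.

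Read totals in genes, recovered from the steps between low TPM values, ran from 27100000 to 53000000 a library. The 8 anterior markers, among them Otx2, Hesx1 and Emx2, summed to between 297 and 359.6 TPM in the 4 anterior libraries and to between 11.32 and 13.38 TPM in the 4 posterior ones. The 10 posterior markers summed to 738.6 and 724.8 TPM in the mutant posterior, 1161 and 889.3 TPM in the wild-type posterior and at most 21.19 TPM in the anterior. The markers therefore matched the region labels in all 8 libraries. Primitive erythroid genes summed to between 23000 and 45470 TPM in the mutant libraries and between 4658 and 10480 TPM in the wild-type libraries. Visceral endoderm genes summed to 381.1 and 1684 TPM in the mutant posterior and 3344 and 2801 TPM in the wild-type posterior. Mutant library 159 expressed Xist and the other 3 pairs expressed Ddx3y, in both regions alike. In whole pieces of embryo, fewer cells of a type and less RNA per cell cannot be told apart.

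The effect of genotype differed between the regions for 169 genes, 1.01% of those tested (limma, Benjamini-Hochberg adjusted p under 0.05). The difference was above 0 for 69 genes (0.413%) and below 0 for 100 (0.599%). A value above 0 means a higher, or less negative, effect in the anterior. Sorted by what passed within each region, 71 of the 169 changed in the anterior only, 47 in the posterior only, 34 in opposite directions and 17 in 1 direction but by different amounts. These classes held 0.425%, 0.281%, 0.204% and 0.102% of all genes tested. By contrast 3937 genes, 23.6%, changed in the anterior and 1919 genes, 11.5%, in the posterior. A call in 1 region alone was therefore common, at 2687 genes in the anterior and 669 in the posterior, and for most of them the difference itself was not called. The 2 effects had a Pearson correlation of 0.595 across genes, which are not independent replicates. The median difference over all genes was -0.041.

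**Figure D1:**
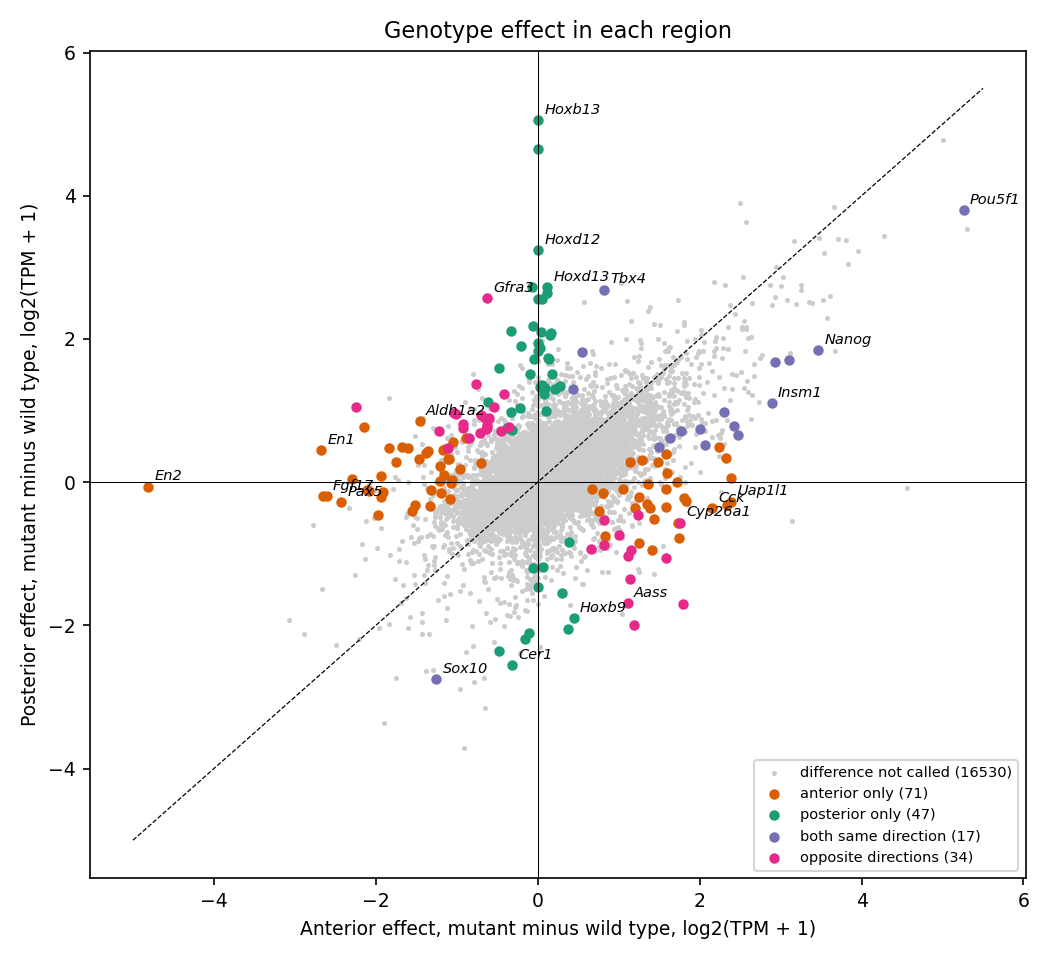
Each point is 1 of the 16699 genes tested, with the anterior genotype effect on the horizontal axis and the posterior effect on the vertical axis, both as mutant minus wild type in log2(TPM + 1). Coloured points are the 169 genes whose effects differed, by class, and the dashed line marks equal effects. En2 lies far to the left at -4.81, Hoxb13 at the top at 5.05, and the 34 genes of opposite direction lie in the upper left and lower right.

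These counts depended on single libraries. Without 1 wild-type posterior library 20 (153 left out) or 24 (156 left out) differences were called. Without 1 wild-type anterior library the counts were 58 (153) and 67 (156), and without 1 mutant anterior library 77 (159) and 80 (163). Without a mutant posterior library 160 (159) and 179 (163) were called. Every one of the 169 kept its direction in all 8 of these fits, and 16 kept their call in all 8. The genes that kept it were En2, Uap1l1, Fgf17, Flrt1, Hoxb13, Hoxd12, Hoxd13, Hoxa13, Hoxb9, Prss56, Gfra3, Cyp26a1, Smoc1, Mbp and 2 predicted RNA genes, Gm23543 and Gm27605. The 16699 genes were held fixed in these fits, and the 1 TPM filter was not redone. Hoxb13, Hoxd12 and Prss56 reached 1 TPM only in the 2 mutant posterior libraries. Without either library they would have failed that filter. The 169 were called in the same libraries, so a kept direction adds no support.

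Among the genes that fell in the anterior only, the largest differences belonged to genes of the midbrain-hindbrain boundary, the signalling centre that patterns the midbrain and cerebellum. En2, a homeobox gene that marks this territory (chr5:28165694-28172166, GRCm38), was read at 0.938 and 1.39 TPM in the mutant anterior and 51.1 and 68.9 TPM in the wild-type anterior. In the posterior it was at most 0.703 TPM in every library. The anterior effect was -4.81 and the difference of effects -4.75 ± 0.29 (SE, limma adjusted p = 0.00059). En1, its paralogue, was read at 8.97 and 7.86 TPM in the mutant anterior and 55.1 and 63.3 TPM in the wild type. Its posterior values lay between 0.0813 and 1 TPM (difference -3.12, adjusted p = 0.0047). Pax5, a paired-box gene of the same territory, was read at 6.68 and 5.76 TPM against 34.4 and 41.4 TPM in the anterior. Its posterior values stayed between 0.802 and 1.32 TPM (difference -2.15, adjusted p = 0.0047). These 3 genes had little RNA in the posterior of either genotype, so the absence of a posterior effect is a statement about genes near the lower limit of detection.

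Fgf17 and Fgf8, which encode the secreted signals of the boundary, were expressed in both regions and fell in 1. Fgf17 was read at 5.06 and 5.84 TPM in the mutant anterior and 36.6 and 39.9 TPM in the wild-type anterior. In the posterior, where the tail bud is a known source of both signals, it was read at 46.1 and 53.9 TPM in the mutant and 63.7 and 51.5 TPM in the wild type. The anterior groups lay far apart and the posterior groups overlapped (difference -2.41 ± 0.19 SE, limma adjusted p = 0.0022). Fgf8 was read at 20.6 and 31 TPM against 55.4 and 64.6 TPM in the anterior and at 58.5 and 61 TPM against 47.5 and 55 TPM in the posterior (difference -1.43, adjusted p = 0.039). Il17rd, a membrane inhibitor of Fgf signalling, was read at 13.5 and 13 TPM against 54 and 55.8 TPM in the anterior. Its posterior values were 41.2 and 24.7 TPM in the mutant and 47.3 and 41.7 TPM in the wild type (difference -1.51, adjusted p = 0.050). Apcdd1, a Wnt inhibitor, fell by 1.52 in the anterior and its posterior effect of -0.32 did not pass.

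In all, 7 of 19 tested boundary genes had a called difference below 0 and none had one called above 0. Of all genes tested, 0.599% and 0.413% did. The median difference over the list was -0.59. Of the 19, 11 fell in the anterior and 3 in the posterior, where 10.2% and 2.93% of all genes tested fell. Pax2 and Pax8, the other paired-box genes of the boundary, did not share the regional pattern of Pax5. Pax2 was read at 3.72 and 3.87 TPM against 15.4 and 17 TPM in the anterior and at 0.652 and 0.762 TPM against 6.93 and 4.69 TPM in the posterior. Its effects were -1.84 and -1.98, both called, and the 95% interval of their difference ran from -0.43 to 0.71. Pax8 was read at 0.564 and 0.684 TPM against 11.8 and 10.3 TPM in the anterior and 0.461 and 0.34 TPM against 5.9 and 4.4 TPM in the posterior. Its effects were -2.89 and -2.13, and the interval of the difference ran from -1.34 to -0.19 (adjusted p = 0.25). Both are also known in the intermediate mesoderm that forms the kidney, a trunk tissue.

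**Figure D2:**
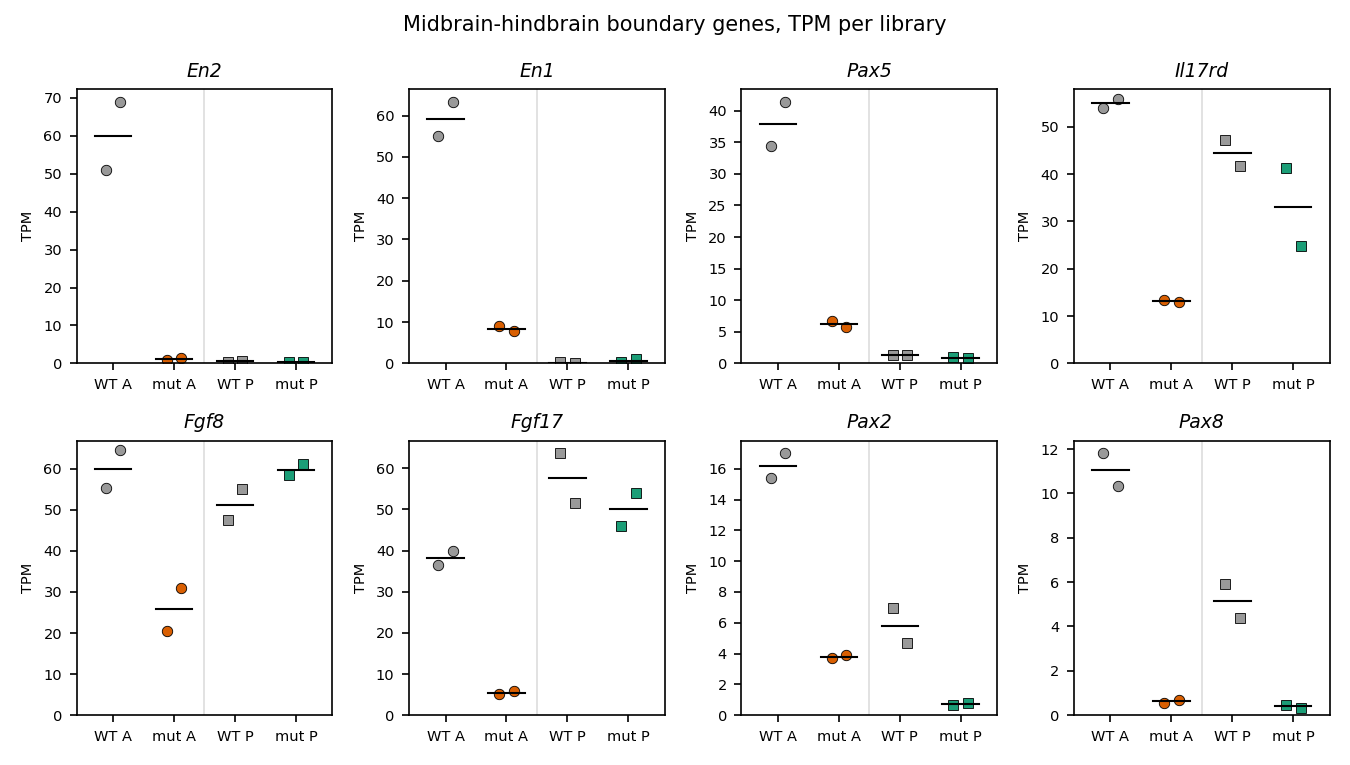
TPM in each library for 8 midbrain-hindbrain boundary genes, with wild type and mutant of the anterior (A, circles) and the posterior (P, squares) side by side and a bar at each group's mean of 2 libraries. En2, En1 and Pax5 have low posterior levels, Fgf17 and Fgf8 fall in the anterior only, and Pax2 and Pax8 fall in both regions.

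Other genes of the anterior-only class that fell were of mixed function. Tmem119, a membrane protein of bone-forming cells and microglia, was read at 5.69 and 9.92 TPM against 42.9 and 31.7 TPM in the anterior and at 71.4 and 91.3 TPM against 51.5 and 42.8 TPM in the posterior (difference -2.92, limma adjusted p = 0.0088). Its posterior rise of 0.77 did not pass (adjusted p = 0.074). Flrt1, a membrane protein that binds Fgf receptors, was read at 1.28 and 1.55 TPM against 10.8 and 10.9 TPM in the anterior and stayed below 0.76 TPM in the posterior. Ccl6, a chemokine of myeloid cells, was read at 0.28 and 0.749 TPM against 9.38 and 7.56 TPM in the anterior and stayed below 0.45 TPM in the posterior. It was 1 of 8 tested genes of the megakaryocyte and macrophage list. The other 7 had no called difference, and 1.01% of all genes tested had one. Cdx1, a caudal homeobox gene, was read at 1.67 and 1.73 TPM against 6.52 and 8.83 TPM in the anterior, and at 126 and 107 TPM against 89.1 and 75.8 TPM in the posterior (difference -2.17). Myc fell from 149 and 163 TPM to 80.8 and 78.3 TPM in the anterior and was read at 126 and 117 TPM against 110 and 105 TPM in the posterior (difference -1.14).

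Of the 71 anterior-only genes, 31 rose. Uap1l1, related to the enzyme that makes UDP-N-acetylglucosamine, was read at 19 and 21.2 TPM in the mutant anterior and 3.22 and 2.82 TPM in the wild type. In the posterior it was read at 15.4 and 14.8 TPM against 19.1 and 17.8 TPM, so the mutant anterior was close to the level of the posterior (difference 2.66 ± 0.17 SE, limma adjusted p = 0.00059). Lhx1, a LIM homeobox gene of axial mesoderm, kidney and neurons, was read at 2.91 and 4.21 TPM against 0.34 and 0.384 TPM in the anterior, and at 12.9 and 8.01 TPM against 17.7 and 13.7 TPM in the posterior. Its level in the mutant anterior stayed below every posterior value. Cck, the cholecystokinin precursor, was read at 5.24 and 8.42 TPM against 0.899 and 0.56 TPM in the anterior and between 2.28 and 4.69 TPM in the posterior. Depp1, a FoxO target, was read at 22 and 29.6 TPM against 3.38 and 4.84 TPM in the anterior and at 13.2 and 8.01 TPM against 9.21 and 10.7 TPM in the posterior. Kazald1, a secreted protein with an insulin-like growth factor binding domain, rose by 2.34 in the anterior. Its posterior values were at most 1.4 TPM. Hist1h2bb, a replication-dependent histone whose RNA lacks a poly-A tail, is uncertain in a poly-A library (anterior effect 1.25, posterior effect -0.85).

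For 4 early neuronal genes the difference of effects was called, with the higher effect in the anterior. Of 25 tested genes of early neurons and cranial ganglia, 20 rose in the anterior and 12 in the posterior, and none fell in either, against 13.3% and 8.56% of all genes tested that rose. The difference was called above 0 for these 4 and below 0 for none, against 0.413% and 0.599% of all genes tested. Its median over the list was 0.99, and 21 did not pass. Insm1, a zinc finger factor of newborn neurons, was read at 18.8 and 26.9 TPM against 1.93 and 2.42 TPM in the anterior and 5.77 and 4.1 TPM against 1.69 and 1.77 TPM in the posterior. It rose in both regions, by 2.89 and 1.11 (limma adjusted p for the difference = 0.032). Neurod4, a proneural factor, rose by 2.93 and 1.68. Both rose in each region without overlap of the genotypes. Stmn2, a tubulin regulator of growing axons, was read at 46.2 and 48.8 TPM against 21.4 and 19 TPM in the anterior and 8.06 and 5.82 TPM against 8.78 and 9.37 TPM in the posterior. Dll3, a Notch ligand of neurons and somites, was read at 10.6 and 16.4 TPM against 2.73 and 3.44 TPM in the anterior, while its posterior values lay between 26.6 and 35.3 TPM. Dll3 also belongs to the presomitic mesoderm, which is in the posterior piece.

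The posterior-only class was led by Hox genes, the homeobox genes whose paralogue groups are expressed in order along the body axis. Of the 10 tested genes of groups 10 to 13, 9 rose in the posterior (8.56% of all genes tested did). A called difference was found for 7, all below 0 (0.599% of all genes tested), with a median of -2.37 over the list. The anterior values of these genes, summed over the list, were between 0.4032 and 1.145 TPM, so a rise could be seen only in the posterior, and their difference restates the posterior effect. Hoxb13 and Hoxd12 reached 1 TPM in mutant posterior RNA alone and were tested for that reason, so the count and the median over tested members describe the list and support nothing further. Of the 12 listed, Hoxc12 and Hoxc13 did not reach the level for testing. Over the whole set of 169, 13 genes reached 1 TPM in 1 group only, Ccl6, Prss56, Cym and Grifin among them.

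Hoxb13 (chr11:96194316-96197447) was read at 38.8 and 32.1 TPM in the mutant posterior and 0.122 and 0.0645 TPM in the wild-type posterior. Its anterior values ran from 0 to 0.152 TPM. About 1288 and 619 reads lay behind the mutant posterior values and 2 reads behind each wild-type one (difference -5.05 ± 0.26 SE, limma adjusted p = 0.00029). Hoxd12 was read at 7.85 and 9.12 TPM in the mutant posterior and was listed at 0 in the 2 wild-type libraries of that region. Hoxd13, the last gene of its cluster, was read at 39.7 and 36.7 TPM against 5.36 and 4.5 TPM in the posterior (effect 2.73). Hoxa13 was read at 18.9 and 18.8 TPM against 2.34 and 2.42 TPM (effect 2.56), and Hoxc11 at 10.9 and 14.1 TPM against 1.33 and 1.23 TPM (effect 2.56). Hoxa11 and Hoxd11 rose by 2.19 and 2.10. The libraries do not mark strand, so reads of Hoxa11 and of its antisense partner Hoxa11os, which rose by 1.87, cannot be told apart. Gm27605, a short predicted RNA gene on the other strand at chr11:96200176-96200311 beside Hoxb13, was read at 25.9 and 34.5 TPM in the mutant posterior, from 53 and 41 reads.

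The earlier groups were different. Of 12 tested genes of groups 6 to 9, none rose in the posterior, 4 fell and 3 had a called difference, all above 0, with a median of 0.54. Of all genes tested, 8.56% rose and 2.93% fell in the posterior, and 0.413% had a difference above 0. Hoxb9 was read at 62.5 and 69.1 TPM in the mutant posterior and 317 and 194 TPM in the wild type, and below 0.75 TPM in the anterior (difference 2.34 ± 0.29 SE, limma adjusted p = 0.011). Hoxc8 was read at 17.4 and 14.7 TPM against 93 and 62.6 TPM, and Hoxc9 at 9.5 and 10.1 TPM against 33 and 25.4 TPM. The 2 wild-type libraries differed more from each other than the 2 mutant ones for each of these 3 genes, but the genotypes did not overlap. Of 15 genes of groups 1 to 5 only Hoxa4 had a called difference (1.01% of all genes tested did). It was read at 51.4 and 55.9 TPM against 19.7 and 16.8 TPM in the posterior and at most 0.0669 TPM in the anterior (difference -1.60). Hoxa5 was read at 69.6 and 72.8 TPM against 35.4 and 31.1 TPM, a posterior effect of 1.08, and its difference of -1.04 did not pass (adjusted p = 0.067). Of group 10, Hoxa10 and Hoxd10 rose in the posterior, by 1.05 and 1.08, and Hoxc10 was read at 24.6 and 26.1 TPM against 22.8 and 31.2 TPM, with overlap. Hoxb9 and Hoxb13 lie in the same cluster and moved in opposite directions in the posterior, as did Hoxc9 and Hoxc11.

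**Figure D3:**
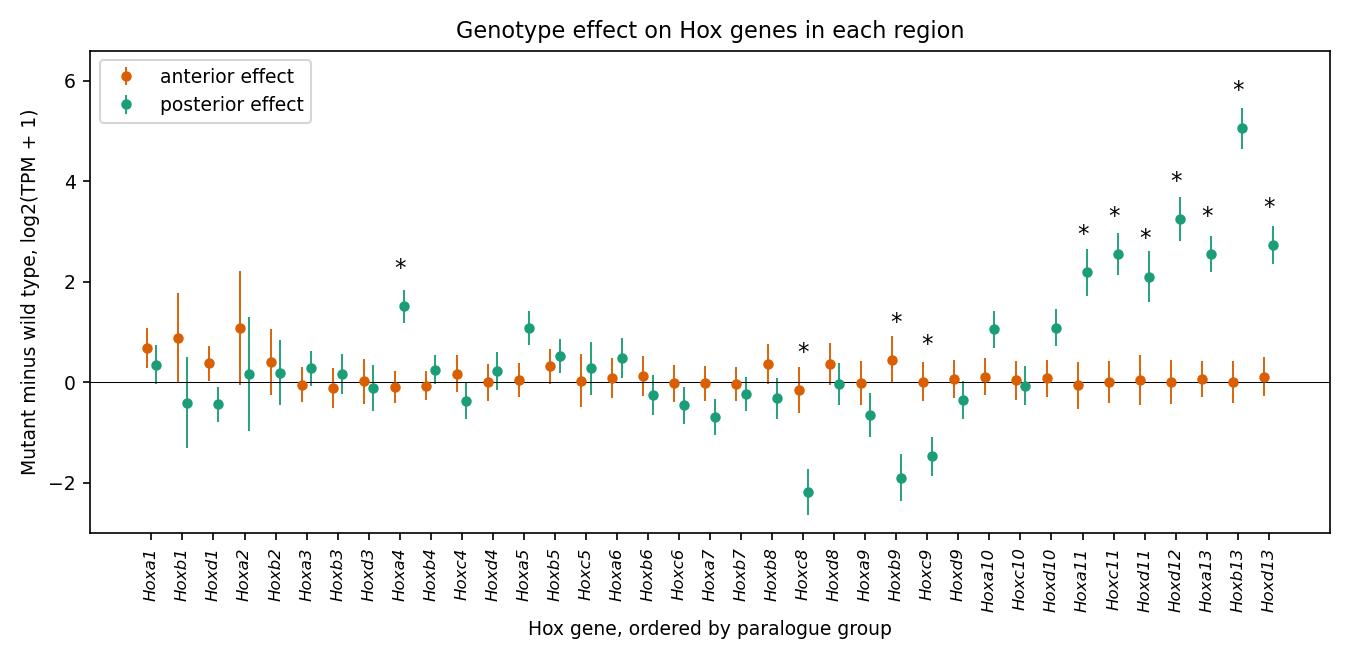
Genotype effect (mutant minus wild type, log2(TPM + 1)) of each tested Hox gene in the anterior and posterior, ordered by paralogue group, with 95% confidence intervals from the limma fit. Asterisks mark the 11 genes with a called difference, and the anterior effects lie near 0 while the posterior effects run from -2.18 for Hoxc8 to 5.05 for Hoxb13.

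Gdf11, Wfikkn1 and Cdx2, regulators linked to the order of Hox genes, had no called difference, unlike Cdx1 above. Gdf11, a growth factor of the trunk-to-tail transition, was read at 24.3 and 25.8 TPM against 22.6 and 23.9 TPM in the anterior and 30.5 and 31.4 TPM against 42 and 33.3 TPM in the posterior. Its list of 10 tested genes had no called difference by limma, and 1 at an unadjusted p under 0.05 (2109 of all 16699 genes tested were). Wfikkn1, an inhibitor of Gdf11, fell in both regions, from 53.4 and 54.8 TPM to 4.8 and 6.36 TPM in the anterior and from 39.8 and 30.5 TPM to 9.08 and 7.76 TPM in the posterior (limma adjusted p for the difference = 0.068). Cdx2, a caudal gene upstream of Hox genes, was read at 171 and 156 TPM against 254 and 219 TPM in the posterior, an effect of -0.53 that did not pass (limma adjusted p for the difference = 0.076). In the anterior Cdx2 was read at 1.33 and 2.38 TPM against 0.802 and 0.877 TPM. That was a called rise of 0.61 on a low level (limma adjusted p = 0.033).

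Over the whole posterior-only class, Hox genes included, 36 genes rose and 11 fell. Prss56, a secreted serine protease, was read at 7.75 and 8.66 TPM in the mutant posterior and at most 0.62 TPM in the wild-type posterior. Cym, the chymosin precursor, was read at 4.63 and 8.43 TPM against 0.109 and 0.23 TPM. Both were under 0.1 TPM in every anterior library, and 23 of the 47 genes were under 1 TPM in every anterior library. Cer1, a secreted Nodal and Bmp antagonist of forming somites, fell from 13.9 and 14.6 TPM to 1.84 and 1.38 TPM in the posterior and was at most 0.552 TPM in the anterior (difference 2.24). Bhlha9, a limb ectoderm factor, fell from 18.9 and 16.1 TPM to 2.76 and 2.47 TPM. Grifin, a galectin-related protein of the lens, fell from 5.26 and 3.48 TPM to 0.108 and 0.373 TPM.

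Emx2, a homeobox gene of the forebrain and the forming kidney, was expressed in both regions and fell in the posterior. It was read at 0.975 and 1.33 TPM against 5.64 and 4.88 TPM there and at 33.4 and 29.1 TPM against 19.9 and 31.5 TPM in the anterior (difference 1.85, limma adjusted p = 0.028). Emx2 is 1 of the 8 anterior markers, and others of that list moved differently in the posterior. Lhx2 rose from 1.53 and 2.04 TPM to 4.09 and 5.78 TPM (posterior adjusted p = 0.0062), and Otx2 was read at 3.2 and 3.31 TPM against 0.637 and 2.66 TPM (adjusted p = 0.12). The summed level of the list was 11.32 and 12.58 TPM in the mutant posterior and 12.6 and 13.38 TPM in the wild type. That sum includes Emx2, whose fall offsets rises of other members, so it does not show whether the other markers rose together. Whether the cut between the pieces fell at the same place in all embryos was not tested.

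Opposite directions were found for 34 genes, and in all 34 the 2 genotypes did not overlap in either region. Both effects had to pass for a gene to enter this class, so the lack of overlap largely follows from the selection and adds no support. Of the 34 genes, 21 were lower in the mutant anterior and higher in the mutant posterior, and 13 the reverse. The first group included transcription factors of head and arch mesenchyme. Alx1, a homeobox gene of frontonasal mesenchyme, was read at 4.26 and 4.61 TPM against 8.39 and 11.7 TPM in the anterior and 10.6 and 13 TPM against 6.26 and 5.05 TPM in the posterior (difference -1.95, limma adjusted p = 0.015). Twist1, a factor of mesenchyme and neural crest, was read at 146 and 205 TPM against 238 and 289 TPM in the anterior and 362 and 345 TPM against 202 and 178 TPM in the posterior (difference -1.49). Snai1, which drives the transition from epithelium to mesenchyme, was read at 58.9 and 76.8 TPM against 115 and 143 TPM and at 129 and 137 TPM against 73.3 and 83.7 TPM (difference -1.68). For each of these genes the wild-type level was higher in the anterior than in the posterior and the mutant level was higher in the posterior, without overlap.

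Alx4, a paralogue of Alx1, overlapped between genotypes in the anterior, at 19 and 23.4 TPM against 19.9 and 25.3 TPM. It rose in the posterior, from 9.6 and 10.6 TPM to 22.7 and 17.7 TPM (effect 0.92, limma adjusted p = 0.012), and its difference did not pass (adjusted p = 0.11). Of 22 tested arch mesenchyme genes, 5 had a called difference, all below 0 (0.599% of all genes tested), with a median of -0.50. Besides Alx1 and Twist1 they included Lhx6, a LIM homeobox gene of the jaw. It rose in the posterior by 1.12, with an anterior effect of -0.61 that did not pass. The summed level of the whole list was 448.7 and 629 TPM against 666.9 and 739.6 TPM in the anterior and 1074 and 1141 TPM against 836.1 and 756.1 TPM in the posterior. Because pharyngeal arch 1 went to the anterior piece and later arches to the posterior piece, the share of arch tissue in each piece cannot be told apart from the level of these genes per cell.

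Gfra3, a receptor for the neurotrophic factor artemin in the sympathetic and sensory lineages, had the highest posterior rise of the opposite class. It was read at 75.8 and 86.3 TPM in the mutant posterior against 10.6 and 15.5 TPM in the wild type. In the anterior it was read at 3.02 and 2.86 TPM against 5.18 and 4.96 TPM, a small fall on a low level (difference -3.19 ± 0.24 SE, limma adjusted p = 0.0014). Tmem132e, a single-pass membrane protein, was read at 2.91 and 4.44 TPM against 8.36 and 5.56 TPM and at 21.5 and 20.4 TPM against 7.82 and 7.11 TPM. Spon1, a floor plate protein that guides axons, was read at 18.7 and 14.3 TPM against 35.6 and 33.7 TPM in the anterior and 32.7 and 22 TPM against 11.6 and 15 TPM in the posterior. Prss35, a secreted protease-like protein, was read at 2.04 and 2.28 TPM against 5.79 and 6.91 TPM and at 15.7 and 20.5 TPM against 11.6 and 9.6 TPM. In the wild type Spon1 was higher in the anterior than in the posterior, while the wild-type values of Tmem132e overlapped between the regions. Prss35 was higher in the posterior of both genotypes. Dkk2, a secreted Wnt modulator, was read at 0.543 and 0.514 TPM against 1.93 and 1.86 TPM and at 7.67 and 10.7 TPM against 5.99 and 3.69 TPM. Dkk2 was the weakest of these, with a posterior adjusted p of 0.050. Smaller opposite changes of the same sign were called for Sp5, a Wnt target, and Nkx6-2 and Lhx5, neural homeobox genes, with differences of -1.17, -1.47 and -1.37. The posterior rise of Lhx5 was on a low level, at 1.78 and 1.83 TPM against 0.55 and 0.794 TPM.

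**Figure D4:**
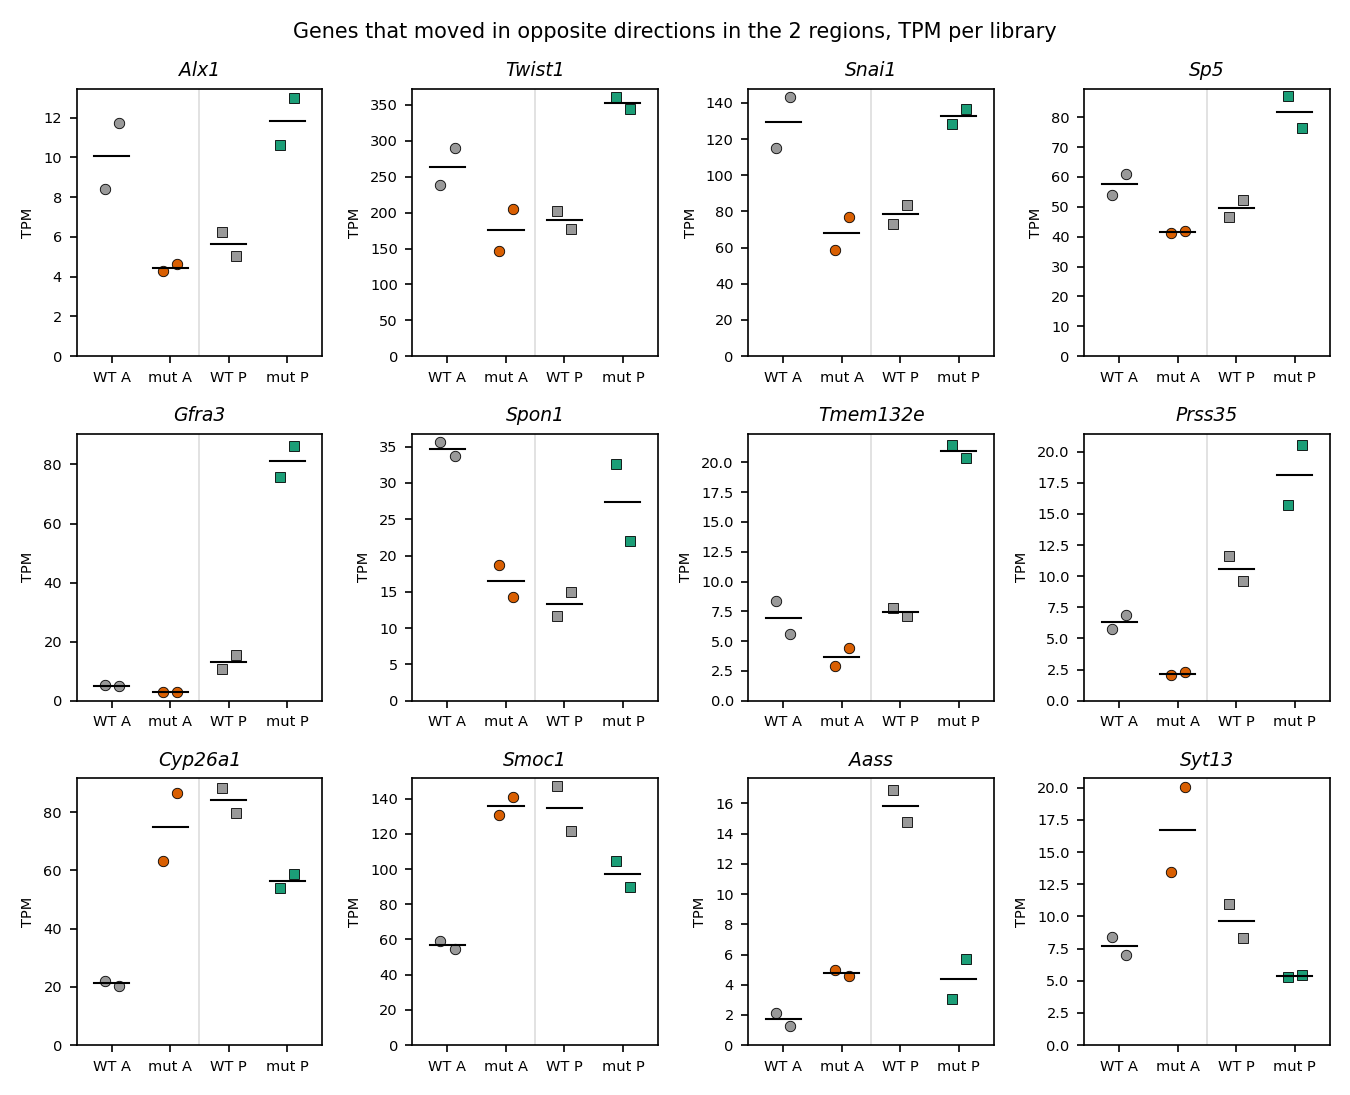
TPM in each library for 12 genes whose anterior and posterior effects were both called and had opposite signs, with wild type and mutant of the anterior (A, circles) and posterior (P, squares) side by side and a bar at each group's mean of 2 libraries. In the upper 8 panels the mutant is lower in the anterior and higher in the posterior. In the lower 4 it is the reverse.

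The reverse pattern included Cyp26a1, whose promoter repeat is printed above. It was read at 63.2 and 86.7 TPM against 22 and 20.4 TPM in the anterior and 54.1 and 58.8 TPM against 88.3 and 79.8 TPM in the posterior. The wild type was higher in the posterior and the mutant higher in the anterior, without overlap (difference 2.32 ± 0.21 SE, limma adjusted p = 0.0033). Smoc1, a secreted Bmp modulator, was read at 131 and 141 TPM against 59.4 and 54.4 TPM in the anterior and at 104 and 89.8 TPM against 147 and 122 TPM in the posterior. For Smoc1 too the wild type was higher in the posterior and the mutant higher in the anterior. Aass, an enzyme of lysine breakdown, was read at 5.01 and 4.61 TPM against 2.15 and 1.28 TPM and at 3.03 and 5.7 TPM against 16.9 and 14.7 TPM. Serpinb1a, a protease inhibitor, was read at 3.49 and 2.63 TPM against 0.37 and 0.317 TPM and at 0.318 and 0.944 TPM against 2.57 and 2.1 TPM. Syt13, a synaptotagmin, was read at 13.4 and 20 TPM against 8.42 and 6.99 TPM and at 5.27 and 5.42 TPM against 11 and 8.36 TPM. Dbx1, a homeobox gene of intermediate neural tube progenitors, was called the same way (difference 1.35).

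The opposite class also held 5 small RNA genes, 14.7% of the class against 2.14% of all genes tested. Gm23543, an snRNA gene with the largest difference of the class at 3.50, rested on 2 and 3 reads in the mutant anterior, 2 and 3 reads in the wild-type posterior and no read in the other 4 libraries. Its call held in all 8 single-library omissions although no library had more than 3 of its reads. The ribosomal RNA gene n-R5-8s1 was read at 287 and 171 TPM against 95.8 and 109 TPM in the anterior and 239 and 212 TPM against 470 and 448 TPM in the posterior. Mir6236, an annotated small RNA gene that collects ribosomal reads, was read at 41910 and 33530 TPM against 19020 and 24890 TPM in the anterior and 38550 and 42330 TPM against 39750 and 65300 TPM in the posterior. Neither effect of Mir6236 passed, and their signs were those of the reverse pattern. With Mir6236, globins and mitochondrial transcripts left out of the total, 176 differences were called, 158 of them shared with the 169, and the difference of Cyp26a1 was 2.36 against 2.32.

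Retinoic acid genes contributed to 3 of the 4 classes. Retinoic acid is made from vitamin A by the Aldh1a enzymes, removed by the Cyp26 enzymes and read by nuclear receptors. Of 20 tested genes, 6 had a called difference (1.01% of all genes tested did), 2 above 0 and 4 below. Aldh1a2, the main source in the trunk, was read at 17.6 and 9.01 TPM against 34.2 and 38.8 TPM in the anterior, where it fell. In the posterior it was read at 525 and 467 TPM against 266 and 282 TPM, an effect of 0.85 that did not pass (limma adjusted p = 0.053, difference -2.31). Aldh1a3, which makes the signal in the eye and face, was read at 118 and 145 TPM against 39 and 46.9 TPM in the anterior and was below 0.85 TPM in the posterior (difference 1.93). Rxrg, a receptor of the retinoid X family, rose in the posterior from 1.81 and 1.86 TPM to 6.52 and 6.08 TPM and overlapped in the anterior. Stra6, which imports retinol, fell in the anterior by 1.05 and had a posterior effect of 0.03. The synthesis genes thus moved in opposite directions in the anterior, Aldh1a2 down and Aldh1a3 up. The median difference over the list was -0.27.

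Genes that moved the same way in both regions but by different amounts numbered 17, and 16 of them rose. The rise was larger in the anterior for 13. Nanog, a pluripotency factor, was read at 19.7 and 22.2 TPM against 0.903 and 1.07 TPM in the anterior and 5.05 and 3.68 TPM against 0.42 and 0.539 TPM in the posterior. Its effects were 3.46 and 1.85 (limma adjusted p for the difference = 0.024). Nanog and Pou5f1 were the only called genes of 17 tested from the pluripotency list (1.01% of all genes tested were called). The median difference of that list was -0.18. Sord, sorbitol dehydrogenase, was read at 118 and 121 TPM against 17.9 and 23.9 TPM and at 61.6 and 62.8 TPM against 38.2 and 40.1 TPM. Lzts1, a regulator of neuronal delamination, rose by 2.42 and 0.79. Esm1, an endothelial proteoglycan, rose by 3.11 and 1.71. It was the only called gene of 20 on the endothelium list, against 1.01% of all genes tested.

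The rise was larger in the posterior for 3 genes. Tbx4, a T-box gene of the hindlimb and allantois, was read at 55.4 and 66.3 TPM against 9.01 and 8.11 TPM in the posterior. In the anterior it was read at 1.06 and 1.38 TPM against 0.188 and 0.338 TPM (effects 2.69 and 0.82, limma adjusted p for the difference = 0.0089). Fgf15, a signal of the early brain, was read at 83.1 and 108 TPM against 27.2 and 25.2 TPM in the posterior and 53.3 and 59.8 TPM against 38.9 and 37.6 TPM in the anterior. Asb4, an ankyrin-repeat protein of vessels, rose by 1.30 in the posterior and 0.44 in the anterior. Sox10, the factor that maintains migrating neural crest, was the 1 gene that fell in both regions with a called difference. It was read at 47.7 and 44.8 TPM against 104 and 120 TPM in the anterior and 2.62 and 2.36 TPM against 20.5 and 24.7 TPM in the posterior. Its effects were -1.25 and -2.75, so the posterior fall was the larger (difference 1.50, adjusted p = 0.0092).

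Several lists had members that rose in both regions and none with a called difference. In the counts that follow, 13.3% of all genes tested rose in the anterior and 8.56% in the posterior. For the difference, 2109 of all 16699 genes tested had an unadjusted limma p under 0.05. Of 23 tested hypoxia targets outside glycolysis, 21 rose in the anterior and 21 in the posterior, with median effects of 1.32 and 1.27. None had a called difference by limma and 2 had an unadjusted p under 0.05, with a median difference of 0.09. Ndrg1, a stress-induced gene with the smallest p for the difference on that list, rose by 1.87 and 0.94, and the 95% interval of the difference ran from 0.38 to 1.48. Primitive erythroid genes rose for 13 and 9 of 23, and integrated stress response genes for 11 and 10 of 23, with no called difference and none at an unadjusted p under 0.05. Among 18 glycolysis genes 10 and 8 rose, with no called difference and 3 at an unadjusted p under 0.05. Of 19 visceral endoderm genes none was called in the anterior, and 7 fell in the posterior, as did 2.93% of all genes tested. Their median difference was 1.33 with no called difference, and 3 were at an unadjusted p under 0.05. A missed threshold does not show that the effects were equal, and some lists varied widely between libraries. Heart genes, for example, summed to 4473 and 953.2 TPM in the mutant posterior and 850.5 and 2056 TPM in the wild-type posterior, with 1 riser in the anterior, 2 in the posterior, no called difference among 24 and 2 at an unadjusted p under 0.05.

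**Figure D5:**
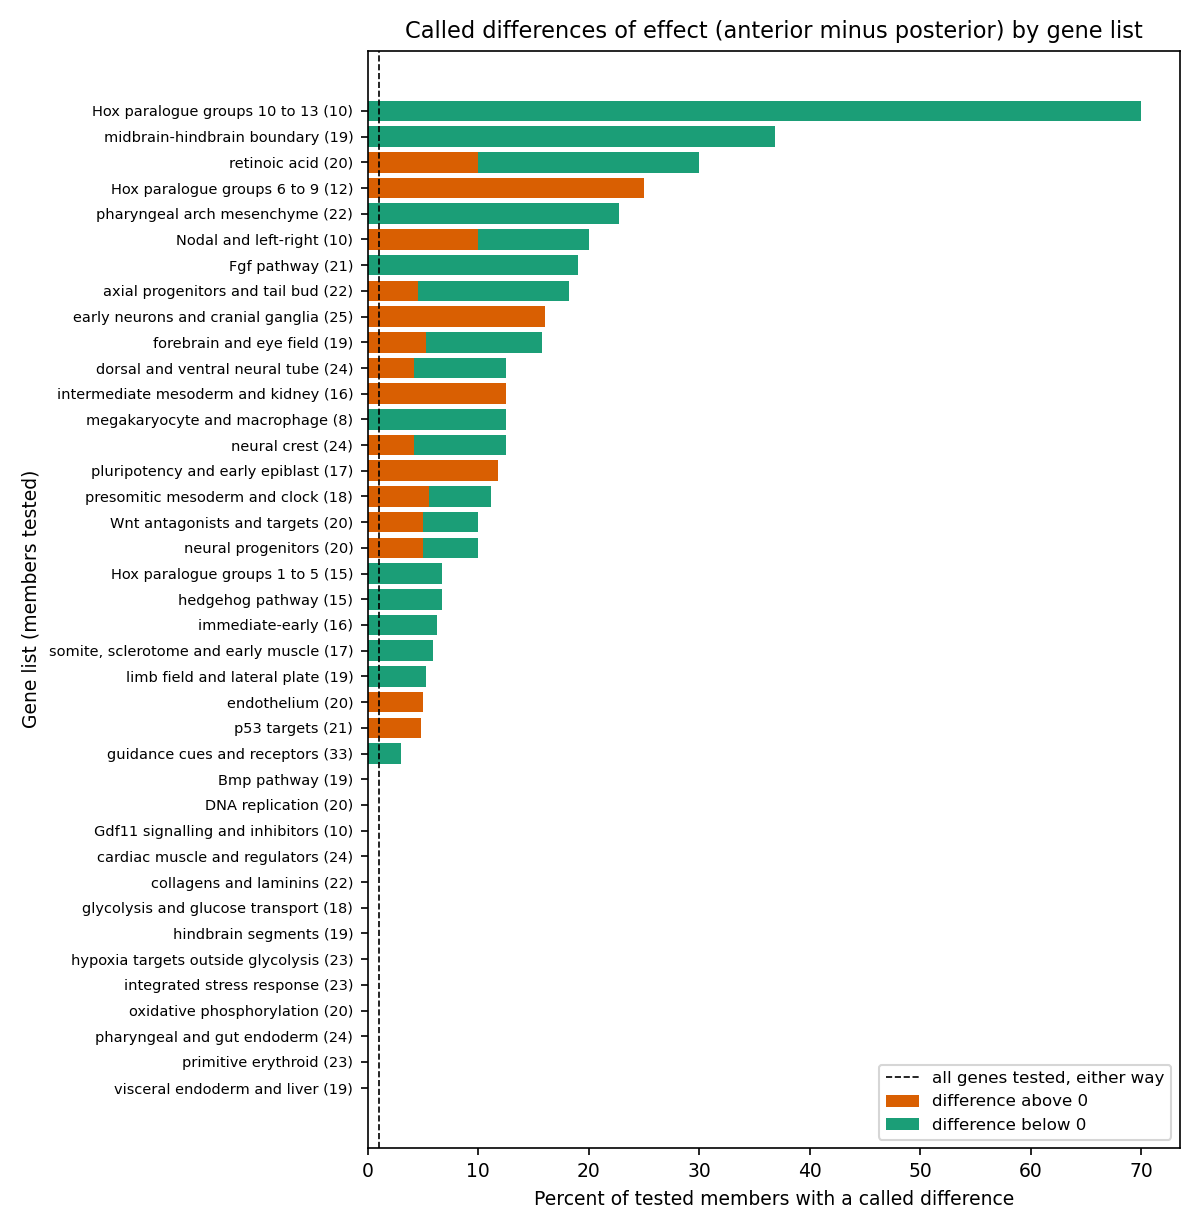
Percent of the tested members of each gene list with a called difference of effects, split into differences above 0 (anterior effect higher) and below 0 (posterior effect higher), with the number tested in brackets and a dashed line at the 1.01% of all genes. The lists with the highest shares are Hox groups 10 to 13 at 70%, the midbrain-hindbrain boundary at 36.8% and retinoic acid at 30%. The Hox share counts Hoxb13 and Hoxd12, tested through the mutant posterior alone, and leaves out 2 untested members, so its rank is a description.

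Over all lists 55 of 629 distinct tested genes, 8.74%, had a called difference, but the lists were drawn up with results of these libraries known, so this share is a description. In the anterior-only class the 95% interval of the posterior effect lay within 1 log2 unit either side of 0 for 59 of 71 genes. In the posterior-only class the interval of the anterior effect did so for 46 of 47, of which 23 had almost no anterior RNA. The word only thus describes a call. On this scale a narrow interval for a gene near 0 TPM still allows a several-fold change of its TPM, as for Hoxb13 in the anterior (interval -0.41 to 0.42).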

How the data were processed

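The table that the authors deposited holds TPM (transcript shares corrected for gene length), with 1 column for each library, scaled to the same total in every library. Per the submitters' processing notes, CASAVA 1.8.2, STAR and the mm10 build were used. The STAR version, gene models and counting method were not given in the sources used here. Storage was in RNAlater, RNA was column-purified and the poly-A TruSeq libraries were non-stranded, per the labels' protocols.

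Names and coordinates came from GENCODE M21 (GRCm38), which matched 55240 of 55421 identifiers. Multiplying TPM by exon-union length turned 98.2% to 98.8% of nonzero values into whole reads (tolerance 0.01 read), from which reads in genes were summed. TPM is relative, so a class that takes a larger share lowers all other values of a library.

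Genes with at least 1 TPM in at least 2 libraries were kept. Values were taken as log2(TPM + 1), and 1 mean for each of the 4 groups was estimated over all 8 libraries in limma (3.58.1, under R 4.3.3), letting the spread follow the mean (trend). There were 4 residual and 4.68 prior degrees of freedom. Two-sided p-values were adjusted by Benjamini-Hochberg over all genes tested, with a threshold of 0.05. Differences on this scale understate changes of low genes. Genes with a called difference were sorted by the calls of their effects in the same fit. The fit was tested on simulated data.

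The members and the 41 gene lists (674 genes, 3 of them unmatched) were chosen with earlier results of these data known. Genes were named by size of the difference within each class (6 each way in region-only classes, 12 of the opposite class, 3 each way otherwise), where the highest group averaged 2 TPM or more, without predicted, small RNA, Y-linked or mitochondrial genes. Up to 4 members of a list with the smallest p were also named. Nr6a1 was always named, and a few genes that these rules take were left out. Pax2, Otx2, Apcdd1, Stra6, Lhx6, Hoxa10, Hoxd10, Hoxc10, Hoxa11, Hoxd11, Hoxa11os, Mbp, Gm23543, Gm27605, n-R5-8s1 and Mir6236 were chosen after their values were seen. Alternatives were other pseudocounts, filters, scalings and fits, a replicate block and omitted libraries.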

Additional observations from a re-analysis of the deposited data

Results flagged for a closer look

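The effect of genotype differed between the regions, by limma's test of the difference itself, for 169 genes. Each gene below passed that test at a Benjamini-Hochberg adjusted p under 0.05, and the value in brackets is its anterior effect minus its posterior effect in log2(TPM + 1).

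Genes that fell in the anterior only were En2 (-4.75), En1 (-3.12), Tmem119 (-2.92), Ccl6 (-2.46), Fgf17 (-2.41) and Flrt1 (-2.34). Genes that rose in the anterior only were Uap1l1 (2.66), Kazald1 (2.65), Cck (2.51), Depp1 (2.34), Lhx1 (2.30) and Hist1h2bb (2.10). Genes that rose in the posterior only were Hoxb13 (-5.05), Hoxd12 (-3.24), Prss56 (-2.80), Hoxd13 (-2.61), Hoxc11 (-2.56) and Cym (-2.52). Genes that fell in the posterior only were Hoxb9 (2.34), Cer1 (2.24), Hoxc8 (2.03), Grifin (1.99), Bhlha9 (1.88) and Emx2 (1.85).

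Genes that rose in both regions, more so in the anterior, were Sord (1.82), Insm1 (1.78) and Lzts1 (1.64), and those that rose more in the posterior were Tbx4 (-1.87), Fgf15 (-1.27) and Asb4 (-0.86). Genes lower in the mutant anterior and higher in the mutant posterior were Gfra3 (-3.19), Tmem132e (-2.14), Spon1 (-2.01), Alx1 (-1.95), Prss35 (-1.93) and Dkk2 (-1.73). Genes with the reverse pattern were Aass (2.80), Serpinb1a (2.64), Cyp26a1 (2.32), Syt13 (1.75) and Smoc1 (1.70).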

How the results depend on the processing

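The 169 differences kept their count within 1.5 times under other pseudocounts, scalings, a filter at 5 TPM, no trend and library weights. With no filter 55 were called, 31 of them shared, with 32 anterior only, 19 posterior only, 1 in 1 direction, 3 opposite, 15 list genes and 954 posterior effects. The pseudocount of 0.1 left 27 posterior-only genes, the filter at 5 TPM gave 28 in 1 direction, leaving out globins, mitochondrial transcripts and Mir6236 gave 26, and library weights gave 1102 posterior effects. The shares of calls above 0 were 40.8% as reported, 46.9% with median-of-ratios scaling and 43.9% with quantile normalization. For the posterior effect the share of rises was 74.5% as reported and 54.3% and 53.9% with those scalings. Omitting 1 library, or both libraries of a number, gave 0 to 179 differences, 478 to 4487 anterior and 79 to 1768 posterior effects. The classes ranged from 0 to 66 (anterior only), 0 to 75 (posterior only), 0 to 17 (1 direction) and 0 to 30 (opposite), and the list genes from 0 to 50. The limma count was 0 without wild-type number 153 or without 156 in both regions, with 1061 and 1172 genes at an unadjusted p under 0.05, and 16 and 30 without mutant number 159 or 163. Deviations of same-numbered libraries correlated at 0.136 (mutant) and 0.0216 (wild type), which does not decide whether the numbers pair the pieces. Xist was at 25.3 and 30.9 TPM in the anterior and posterior of 159, and 0.0749 and 0.0383 TPM in 163. Globins took 4.43% and 4.45% of TPM in 159 and 2.59% and 2.25% in 163. In the wild type they took 0.426% and 0.639% in 153 and 1% and 0.769% in 156. The reported fit did not pair the pieces. With the number as a replicate block 115 differences were called, 94 of them shared, and 40 list genes, and 53 of the 78 named genes kept their call and 25 lost it. None of those 78 named genes reversed in any setting, and 57 lost their call with no filter. All 78 had a called difference in the same libraries, so an unreversed direction adds no support. The uncalled difference of Pax2 ranged from -0.169 to 0.444 over such omissions (-0.102 without wild-type posterior library 153, -0.169 without number 153 in both regions), and that of Hoxc10 from -0.109 to 0.327 (-0.108 without wild-type posterior library 156, -0.109 without number 156 in both regions). The causes were not tested. With 2 libraries a group, small differences and genes of a few reads could not be resolved.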

Other observations

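Further genes among the 169, chosen after their values were seen except Hesx1, Efnb3 and Trp53inp1, are given here by their values. Values follow the order mutant 159 and 163, then wild type 153 and 156. In this paragraph the values are those of the anterior unless the posterior is named. Onecut2, a factor of differentiating neurons, was read at 12.2 and 13.4 TPM against 1.75 and 1.75 TPM, and Sox14, an interneuron factor, at 10.6 and 10.3 TPM against 0.929 and 2.02 TPM. In the posterior Onecut2 had about 546 and 226 reads against 150 and 305, and Sox14 19 and 10 against 3 and 2. These reads are not corrected for library size. Wnt7a, a secreted signal, was read at 7.93 and 6.47 TPM against 1.14 and 1.45 TPM, while Wnt7b was read at 13.9 and 19.6 TPM against 38.1 and 39 TPM. These relatives thus moved in opposite directions within the anterior. Hesx1, a repressor of the anterior neural plate and pituitary, was read at 11.3 and 6.55 TPM against 33.8 and 38.2 TPM. Its posterior values lay between 0.855 and 1.83 TPM. Nnat, an imprinted gene, was read at 1195 and 1458 TPM against 610 and 590 TPM, and Trp53inp1, a p53 target, at 28 and 23 TPM against 8.51 and 8.35 TPM. In the posterior Trp53inp1 was read at 15.1 and 12.3 TPM against 10.5 and 11.7 TPM.

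The following genes rose in the posterior, and all but Dlk1 had a called effect there only. Unc5a, a netrin receptor, was read at 23.7 and 23.8 TPM against 4.55 and 5.36 TPM, and its 4 anterior values lay between 4.12 and 6.16 TPM. Pth1r, the receptor of parathyroid hormone, was read at 143 and 163 TPM against 59.4 and 60.2 TPM. Postn, a matrix protein of mesenchyme, was read at 81 and 91 TPM against 30.1 and 28.8 TPM. Efnb3, an ephrin, was read at 164 and 172 TPM against 65.2 and 77.7 TPM, and at 110 and 136 TPM against 117 and 115 TPM in the anterior. Dlk1, an imprinted gene of the opposite class, was read at 38.3 and 51.9 TPM against 67.7 and 70.7 TPM in the anterior and at 283 and 396 TPM against 188 and 195 TPM in the posterior.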
